A study of Homo sapiens with 2 samples.

Results

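The genes described here are 8 enzymes by which the liver disposes of nitrogen and breaks down tyrosine: CPS1, OTC, ASS1, ASL, ARG1 and ARG2 of the urea cycle, and TAT and HPD of tyrosine breakdown. They were found by gene symbol in the platform annotation, which named 12 probes for the 8 genes, out of 48802 probes and 18665 named genes on the array. Expression was measured in KYN2, an established human hepatocellular carcinoma line. Control cells were measured on 1 array of the Illumina HumanWG-6 BeadChip type, and cells labelled HSF1 knockdown on 1 array. HSF1 is the transcription factor that switches on chaperone genes under heat and protein stress. The knockdown cells were made by transfecting a plasmid for a short hairpin RNA against HSF1 and kept as a stable line under puromycin. The labels leave unsaid which plasmid, if any, the control cells held, whether they were kept under puromycin, or whether either line is 1 clone. With 1 array per group there is no replicate spread, so no difference below has a test or a p-value, and "higher" or "lower" refers to these 2 arrays.

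The urea cycle turns ammonia, which is toxic to the brain, into urea that the kidney can excrete. It begins in the mitochondria of periportal hepatocytes, where CPS1 joins ammonia to bicarbonate and OTC passes the product to ornithine to make citrulline. In the cytosol ASS1 joins citrulline to aspartate, ASL splits the product into arginine and fumarate, and ARG1 releases urea and returns ornithine. ARG2 is a second arginase, which sits in mitochondria and is used mainly outside the liver. TAT starts the breakdown of tyrosine by removing its amino group, and HPD carries out the step that follows. Several of these enzymes are marks of mature hepatocytes and are often reduced in liver cancer cells.

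The HSF1 probes did not settle the knockdown, so both arrays are named by their labels and every direction rests on them. The brighter HSF1 probe had a signal of 164.3 in control cells and 58.2 in knockdown-labelled cells. Its log2 difference was -2.29 in normalized level and -1.09 in the authors' processed values. Its detection values ran the other way, with a detection p of 0.00527 in control and 0 in knockdown-labelled cells, and it was the 1 probe of all 48802 whose detection value broke the order of the signals. The dimmer HSF1 probe had signals of 77.9 and 81.3 and was not detected on either array. Signals of all probes had a median of 61.5 in control and 59.8 in knockdown-labelled cells, and 11707 and 12200 probes were detected. The number of arrays limits the precision.

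The cells carried transcripts of hepatocytes on both arrays. Of 12 hepatocyte markers, 11 were detected on at least 1 array, beside 8822 of all 18665 named genes. Albumin (ALB) had signals of 19292.5 and 20949.9 on the control and knockdown-labelled arrays, and APOA1 6570.2 and 7462.0. TTR and AFP passed detection in knockdown-labelled cells alone. The other hepatocyte markers, named after their values were seen, went both ways. Lower were APOB at -1.91 on the log2 scale of normalized level and FGB with a bound of -1.84. AMBP was higher at 1.24. Within 2-fold lay RBP4 at -0.96, FGA at -0.74, TF at 0.81 and SERPINA1 at 0.64, and HP was below detection on both arrays. FGA and SERPINA1 were each under 2-fold in 5 of 6 alternative settings, and reached -1.38 and 1.51 in the other. The median of the 8 hepatocyte markers detected on both arrays was 0.21. The summed signal of the 12 was 49523.2 and 59203.7. Of 12 markers of myeloid, endothelial, stellate and lymphoid cells, 3 were detected on either array. The summed signal of all 12, undetected ones included, was 1198.3 in control and 1796.7 in knockdown-labelled cells. PTPRC, PECAM1 and COL1A1, which define leukocytes, endothelium and fibroblasts, were below detection on both arrays. The myeloid markers CD14 and LYZ (LYZ chosen after its values were seen) passed detection in knockdown-labelled cells alone, at 256.7 and 667.2. The third detected marker, CD68, also named after its values were seen, had signals of 521.9 and 353.5. Of 6 biliary and progenitor markers, 4 were detected, with a summed signal of all 6 of 12346.5 and 15909.1, and KRT7 and KRT19 were below detection on both arrays. Named after their values were seen, CD24 went from 214.9 to 2694.0, SOX9 from 56.1 to 642.6 and EPCAM from 58.0 to 103.6, and SPP1 was within 2-fold at 0.27. The part of these markers in the results that follow was not tested. In bulk RNA, fewer cells expressing a gene and less RNA of it per cell cannot be told apart.

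ASS1 and HPD were lower and ARG2 was higher on the knockdown-labelled array, CPS1 was lower by just under 2-fold, ASL was lower by less, and OTC, ARG1 and TAT were not detected on either array. A probe counted as detected at a detection p under 0.01, and a gene as higher or lower at a difference of at least 2-fold in normalized level. Of the 4 genes detected on both arrays, 1 was higher (ARG2), 1 was lower (ASS1) and 2 lay within 2-fold (CPS1 and ASL). Among all 7511 genes detected on both arrays, 9.89% were called higher and 10.4% lower by the same rule, 20.3% in all. HPD was detected on the control array alone. OTC, ARG1 and TAT were among the 9843 of all 18665 named genes below detection on both arrays. The median log2 difference of the 4 genes was -0.77, beside -0.06 over all 7511 genes. Of the 4 genes, 3 lay below 0, as did 4001 of all 7511. With HPD added at its bound, the median of 5 genes was -0.98, beside -0.03 over the 8822 genes detected on at least 1 array. Counts this small say nothing about the group as a whole.

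**Figure D1:**
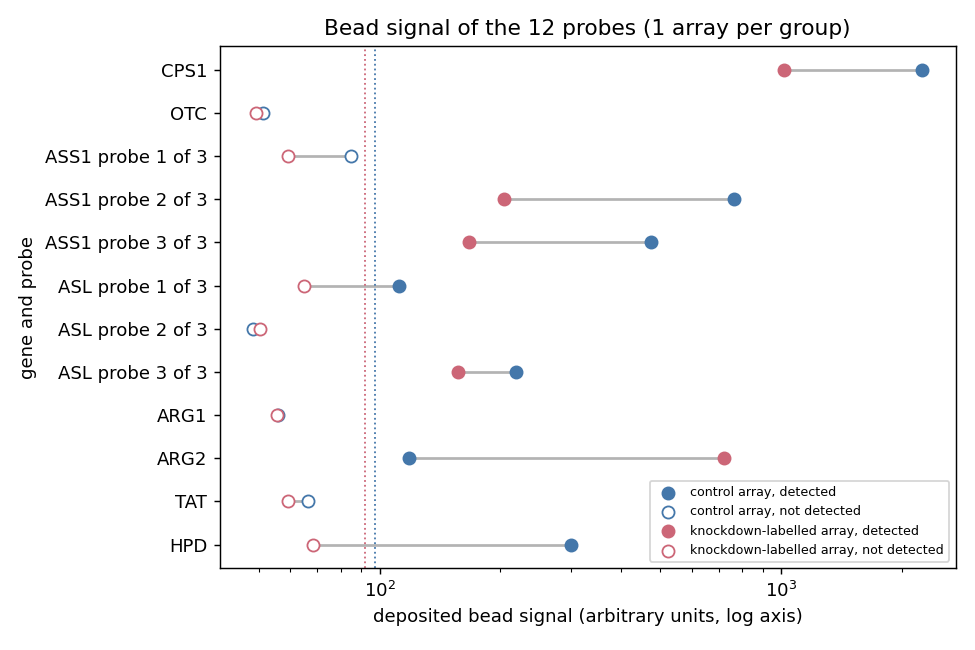
Deposited bead signal (log axis) of the 12 probes on the control array (blue) and the knockdown-labelled array (red), 1 array each. Filled points were detected, open points were not, and dotted lines mark the lowest detected signal on each array, 97.4 and 91.8. Among probes detected on at least 1 array, that of ARG2 alone has the red point to the right, and OTC, ARG1 and TAT lie left of both lines.

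ARG2 had the largest difference of the 8 genes among those detected on both arrays. Its probe, ILMN_1800898, had a signal of 118.3 in control cells and 720.7 in knockdown-labelled cells, a 6.09-fold ratio of signals. After background correction and normalization its level was 6.28 and 9.49 on the log2 scale, a difference of 3.21 or 9.23-fold. ARG2 ranked 21 of 7511 genes from the highest difference, and 0.28% of those genes were as far in that direction. The control signal was close to the detection limit, with a detection p of 0.00527 where the lowest detected signal was 97.4, so the size of the fold depends on the background correction. Without that correction the log2 difference was 2.68, and the authors' processed values gave 2.64. ARG1, the cytosolic arginase that liver normally uses, had signals of 56 and 55.6, with a detection p of 0.427 in control and 0.35 in knockdown-labelled cells. Of the pair of arginases, the mitochondrial one was detected on both arrays and the liver one on neither.

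ASS1, which makes argininosuccinate and is the step that limits arginine supply in many tumours, was lower on both of its detected probes. The brighter probe, ILMN_1708778, had a signal of 764 in control cells and 203.5 in knockdown-labelled cells. Its normalized level was 9.42 and 7.39, a log2 difference of -2.04 or 4.10-fold lower. The probe ILMN_2395451 had signals of 474.5 and 166.7 and a log2 difference of -1.70, or 3.26-fold lower. The third probe, ILMN_1688234, had signals of 85.1 and 59.0 and was not detected on either array. For comparison, over 1577 genes with several probes detected on both arrays, the range of log2 difference within a gene had a median of 0.23 and a 90th percentile of 0.89. ASS1 ranked 82 of 7511 from the lowest difference, and 1.09% of genes were as far in that direction. The human genome holds many processed copies of ASS1, and binding of their transcripts to these probes was not tested.

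CPS1, the entry step of the cycle, was detected strongly on both arrays. Its probe, ILMN_1792748, had a signal of 2242 in control cells and 1017.8 in knockdown-labelled cells, a 2.20-fold ratio. The normalized level was 10.02 in knockdown-labelled cells, a log2 difference of -0.98 or 1.98-fold lower, just inside the 2-fold limit. CPS1 ranked 807 of 7511 from the lowest, and 10.7% of genes were at least as low, so a difference of this size was common between these arrays. Its call depends on the scaling: the log2 difference was -1.05 with centring on the median in place of quantile normalization, and -1.14 for the plain ratio of signals. The transcript CPS1-IT1, which lies in an intron of CPS1 and is no member, was not detected, with signals of 53.4 and 50.2.

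ASL, which releases arginine and fumarate, lay closest to no difference among the detected genes. Its brightest probe, ILMN_2379393, had signals of 218.9 and 156.5, with a log2 difference of -0.56 or 1.48-fold lower. That is within 2-fold, and 23.3% of genes were at least as low. The probe ILMN_1685037 was detected on the control array alone, with signals of 111.5 and 64.7. Set against the lowest detected level of the knockdown-labelled array, its difference was at least 1.37-fold lower. The probe ILMN_1685142 had signals of 48.5 and 50.4 and was not detected on either array. The probes of ASL therefore differed in whether they detected the gene, and the 1 detected on both arrays did not reach 2-fold.

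HPD, the dioxygenase that makes homogentisate from the product of TAT, was detected on the control array alone. Its probe, ILMN_1745688, had a signal of 299.5 in control cells and 68.4 in knockdown-labelled cells, where the detection p was 0.0553. The normalized level was 7.97 on the control array, against a lowest detected level of 5.70 on the other, so on the normalized scale HPD was at least 4.83-fold lower there. The ratio of the deposited signals themselves was 4.38-fold. By measured levels the log2 difference was -3.01. Of 517 genes with detection in control cells alone, 27.9% were at least 2-fold lower by the same bound, and HPD ranked 16. The bound on the log2 scale was -2.27 with background correction, -1.66 without it, and -1.71 from the deposited signals alone. TAT, the enzyme just before HPD and a classical glucocorticoid-induced liver gene, had signals of 66.4 and 59.1 and was not detected on either array. OTC, whose loss causes the commonest inherited urea cycle disorder, had signals of 51.3 and 49.3 and was not detected either. For genes below detection on both arrays no fold is given.

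**Figure D2:**
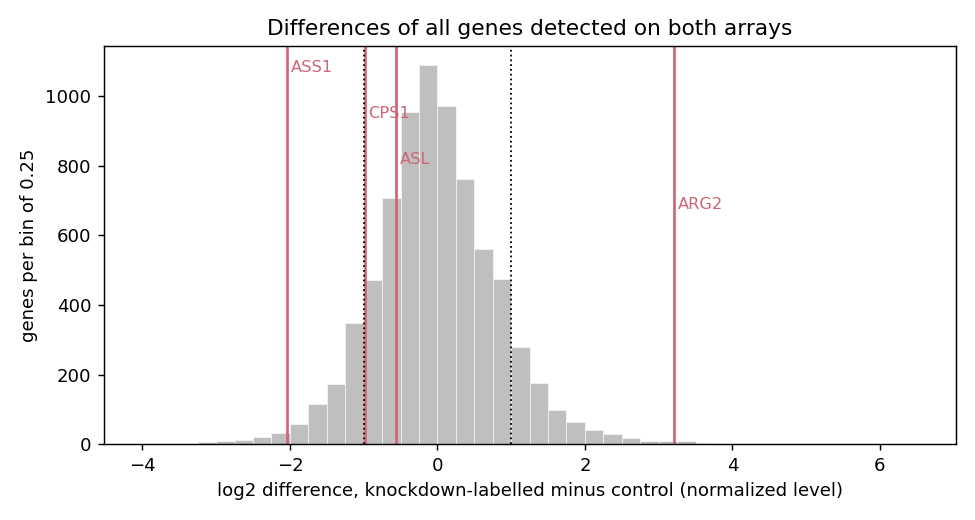
Histogram of the log2 difference in normalized level (knockdown-labelled minus control, bins of 0.25) for the 7511 genes detected on both arrays, with red lines for the 4 members among them and dotted lines at 2-fold. ARG2 at 3.21 lies in the upper tail, ASS1 at -2.04 in the lower tail, and CPS1 at -0.98 and ASL at -0.56 within the body of the distribution.

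The promoters of ARG2, ASS1 and HPD, the members furthest apart between the arrays, are given here from RefSeq (GRCh38.p14), each from 250 bases before to 50 bases after an annotated start, written 5′ to 3′ on the gene's own strand. The RefSeq table gave 11 such windows for 7 of the 8 genes and none for TAT. Capitals mark the letters of 5 motifs searched on both strands: TGACGTCA, bound by CREB and related factors of cAMP signalling; CACGTG, an E-box bound by MYC and related factors; GAANNTTC and TTCNNGAA, the paired units of a heat shock element bound by HSF1; and TTGCNNAA, a form of the C/EBP site. The windows printed are those of these 3 genes that hold a match.
ARG2, chr14:67619670-67619969, plus strand: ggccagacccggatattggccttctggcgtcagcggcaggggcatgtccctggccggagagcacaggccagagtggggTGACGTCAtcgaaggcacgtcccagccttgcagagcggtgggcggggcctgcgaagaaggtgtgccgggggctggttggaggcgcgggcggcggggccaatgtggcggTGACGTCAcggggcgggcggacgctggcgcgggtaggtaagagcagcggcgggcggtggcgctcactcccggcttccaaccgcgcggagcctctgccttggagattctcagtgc
ASS1, chr9:130444711-130445010, plus strand: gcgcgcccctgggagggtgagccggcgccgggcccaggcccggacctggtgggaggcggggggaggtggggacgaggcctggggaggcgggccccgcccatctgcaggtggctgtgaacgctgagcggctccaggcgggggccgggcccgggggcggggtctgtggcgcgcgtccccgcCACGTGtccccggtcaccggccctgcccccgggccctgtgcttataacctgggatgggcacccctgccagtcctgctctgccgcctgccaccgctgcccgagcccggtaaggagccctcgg
HPD, chr12:121888562-121888861, minus strand: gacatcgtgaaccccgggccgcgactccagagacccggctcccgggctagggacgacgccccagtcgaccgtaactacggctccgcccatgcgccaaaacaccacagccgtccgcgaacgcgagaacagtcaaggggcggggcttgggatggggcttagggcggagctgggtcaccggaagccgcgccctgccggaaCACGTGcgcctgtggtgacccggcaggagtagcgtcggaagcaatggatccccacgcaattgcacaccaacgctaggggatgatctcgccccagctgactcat
HPD, second start, chr12:121858810-121859109, minus strand: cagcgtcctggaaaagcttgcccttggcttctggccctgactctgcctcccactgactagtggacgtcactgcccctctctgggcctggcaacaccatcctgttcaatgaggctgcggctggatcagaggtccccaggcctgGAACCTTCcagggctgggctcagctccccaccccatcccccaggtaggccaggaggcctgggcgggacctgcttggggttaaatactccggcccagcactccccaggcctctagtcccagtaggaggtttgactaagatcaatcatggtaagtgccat

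The ARG2 promoter held the cAMP response element TGACGTCA at 2 places, beginning 172 and 64 bases before the start. Of 35116 promoter windows in the table, 1.85% held this motif at least once and 21 windows held 2 or more. The ASS1 window held the E-box CACGTG 71 bases before the start, and 1 HPD window held it 53 bases before the start. The E-box was found in 7.26% of all windows. A CPS1 window, 1 of 3 for that gene, also held the E-box, 46 bases before its start. The other HPD window held GAANNTTC 108 bases before the start, a motif found in 6.77% of all windows. TTCNNGAA and TTGCNNAA, present in 7.74% and 10.5% of all windows, were found in none of the 11 windows of these genes. The matches describe letters within these windows and were not tested for binding.

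The neighbours of each gene on its chromosome were measured on the same arrays. For each gene the 10 nearest genes detected on both arrays were taken on either side. Their counts stand beside 9.89% higher and 10.4% lower over all genes detected on both arrays. The neighbours of ARG2 on chromosome 14 had a median log2 difference of -0.09, with 2 of 20 higher and 1 lower by 2-fold, and ran from -1.05 to 2.07. ARG2 itself, at 3.21, lay above all 20. The neighbours of ASS1 on chromosome 9 had a median of -0.18, with 4 lower and 1 higher, and ASS1 lay below all of them. The nearest detected gene before ASS1, NCS1, was at -1.94, close to ASS1, and the nearest after it, FUBP3, was at 0.02. The neighbours of HPD on chromosome 12 had a median of -0.30, with 5 lower and 1 higher, among them PSMD9, the nearest detected gene on 1 side, at -1.66. For CPS1 on chromosome 2 the median was 0.00 and for ASL on chromosome 7 it was 0.06. The 3 undetected genes also had neighbours that were measured, with medians of 0.62 around OTC on chromosome X, 0.51 around ARG1 on chromosome 6 and -0.08 around TAT on chromosome 16.

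**Figure D3:**
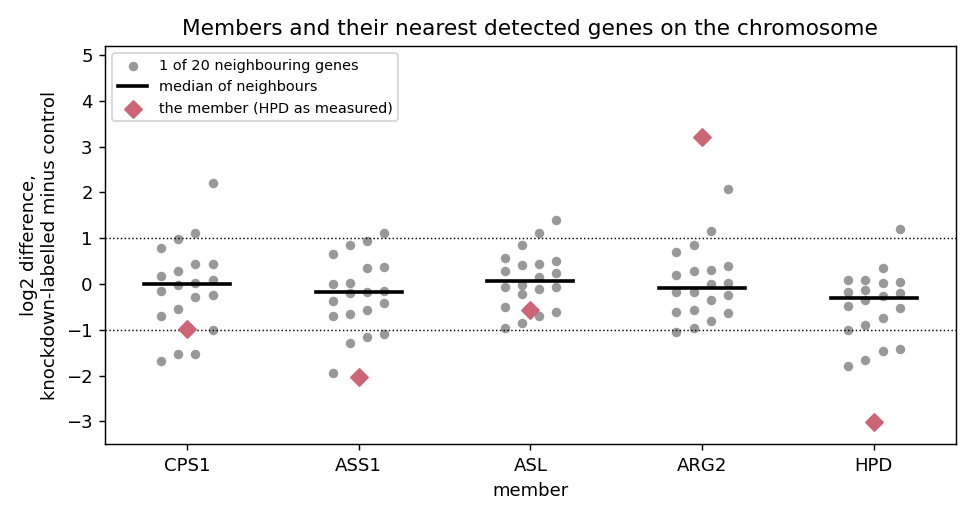
Log2 difference (knockdown-labelled minus control) of 5 members (red diamonds, HPD as measured) and of the 20 nearest genes detected on both arrays on the same chromosome (grey points, bar at their median), with dotted lines at 2-fold. ARG2 lies above, and ASS1 and HPD lie below, all of their 20 neighbours, and CPS1 and ASL lie among theirs.

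Among genes that feed the urea cycle, the mitochondrial carriers SLC25A15 and SLC25A13 and, at the limit, GLUD1 were lower. Of 10 such genes with a named probe, 4 were detected on both arrays. Of these, 3 were at least 2-fold lower, 0 higher and 1 within 2-fold, beside 10.4% of all genes called lower. Another 4 were below detection on both arrays, beside 9843 of all 18665 named genes. The 4 detected on both arrays lay below 0, as did 4001 of all 7511 genes so detected. Their median was -1.10, beside -0.06 over all 7511. SLC25A15, the carrier that brings ornithine into mitochondria, had signals of 519.9 and 206.0 and a difference of -1.43, and its second probe was at -1.41. SLC25A13, called citrin, which exports the aspartate that ASS1 uses, had signals of 1079.6 and 450.2 and a difference of -1.20. GLUD1, which releases ammonia from glutamate, was at the limit, with signals of 1620.1 and 736.4 and a difference of -1.0008, and was under 2-fold in 3 of 6 alternative settings. The GLUD1 probe may also bind the near-identical GLUD2. Below the 2-fold limit lay the mitochondrial deacylase SIRT5 (-0.34). NAGS, which makes the activator that CPS1 needs, and SLC25A12 were detected on the control array alone, with bounds of -0.57 and -0.58 on the normalized scale. The difference of NAGS was as small as -0.53 in the alternative settings. With these at their bounds the median of 6 genes was -0.79.

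Other pathways that use arginine and ornithine moved both ways, with the lower calls in polyamine synthesis, creatine synthesis and arginine uptake. Of 16 genes detected on both arrays, 5 were lower, 2 higher and 9 within 2-fold, with a median of -0.51. Over all genes detected on both arrays, 10.4% were called lower and 9.89% higher, with a median of -0.06. AGMAT, of the same enzyme family as the arginases, had signals of 768.1 and 143.3 and a difference of -2.73. SRM, which makes spermidine, went from 983.3 to 225.5 and was at -2.23. ODC1, which turns ornithine into putrescine, went from 4873.3 to 1216.1 and was at -1.84. SLC7A1, the main importer of arginine in growing cells, went from 1643.9 to 516.9 and was at -1.58. The other calls, chosen after their values were seen, were the creatine synthesis gene GAMT at -1.43, AMD1 of polyamine synthesis at 1.30 and ALDH18A1, which starts proline and ornithine synthesis from glutamate, at 1.18. ALDH18A1 was under 2-fold in 1 of 6 alternative settings. OAT, which clears ornithine, was within 2-fold at 0.49. The nitric oxide synthases NOS1, NOS2 and NOS3, which also use arginine, were below detection on both arrays.

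The enzymes that follow HPD in tyrosine breakdown were lower too, except HGD. Of 6 genes of phenylalanine and tyrosine breakdown detected on both arrays, 4 were lower, 0 higher and 2 within 2-fold, with a median of -1.30, beside 10.4% called lower and a median of -0.06 over all genes. FAH, which carries out the last step and is lost in hereditary tyrosinaemia, had signals of 468.5 and 109.2 and a difference of -2.57. GSTZ1, the isomerase just before FAH, went from 323.9 to 106.3 and was at -2.05. Both genes had knockdown-labelled signals near the lowest detected signal of 91.8. The smallest difference in 6 alternative settings was -2.01 for FAH and -1.53 for GSTZ1. PCBD1, which recycles the cofactor of phenylalanine hydroxylation, went from 2416.2 to 722.2 and was at -1.60. MAOA, which oxidises monoamines, was at the limit at -1.0014, from 428.9 to 220.8, and was under 2-fold in 5 of 6 alternative settings. HGD, the step directly after HPD, had signals of 2387.2 and 2086.9 and a difference of 0.05. QDPR, also of cofactor recycling, was at -0.79.

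Breakdown of other amino acids showed a mixture. The counts stand beside 10.4% lower and 9.89% higher over all genes detected on both arrays, with a median of -0.06. Of 6 genes of tryptophan breakdown detected on both arrays, 1 was lower, 1 higher and 4 within 2-fold, with a median of -0.63. KYNU, which cleaves kynurenine, had signals of 5093.7 and 1932.6 and a difference of -1.21, and its second probe was at -1.27. QPRT, which leads from tryptophan to NAD, went from 3365.2 to 6468.6 and was at 1.11, under 2-fold in 1 of 6 alternative settings. TDO2, the liver enzyme that starts the pathway, was below detection on both arrays. Of 4 genes of histidine, serine, glycine and threonine breakdown detected on both arrays, 2 were lower, 0 higher and 2 within 2-fold. In this list 9 of 13 with a named probe were below detection on both arrays, beside 9843 of all 18665 named genes. The lower pair were GCSH of the glycine cleavage system at -1.41 and AMDHD1 of histidine breakdown at -1.14, the latter under 2-fold in 4 of 6 alternative settings.

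Among genes of methionine and cysteine breakdown, 8 were detected on both arrays. Of these, 2 were lower, 1 higher and 5 within 2-fold, with a median of -0.48. The shares over all genes detected on both arrays were 10.4% lower and 9.89% higher, with a median of -0.06. MAT1A, the liver form of the enzyme that makes S-adenosylmethionine, had signals of 291.8 and 93.4, the latter near the lowest detected signal of 91.8, and a difference of -2.19, with -1.57 the smallest in its 6 alternative settings. BHMT2, which methylates homocysteine, was at -1.27 on its brighter probe and -0.61 on the other, and was under 2-fold with the mean of its probes. CTH, which makes cysteine from cystathionine, went the other way, from 209.1 to 659.4, with a difference of 1.98. CDO1, which oxidises cysteine, passed detection in knockdown-labelled cells alone and was at least 2.08-fold higher there on the normalized scale. Its measured difference was under 2-fold in 4 of 6 alternative settings, with 0.83 the lowest. Of the 794 genes detected on that array alone, 23.8% were at least 2-fold higher by their bound. Of 6 genes of proline, lysine and glutamate breakdown detected on both arrays, 1 was higher, 0 lower and 5 within 2-fold, with a median of 0.09. The higher gene, the asparaginase-like ASRGL1 at 1.35, was under 2-fold in 4 of 6 alternative settings.

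Genes of branched-chain amino acid breakdown were called in both directions in equal number. Of 17 detected on both arrays, 3 were lower, 3 higher and 11 within 2-fold, with a median of 0.22. Over all genes detected on both arrays, 10.4% were called lower and 9.89% higher, with a median of -0.06. The transaminases that begin the pathway were lower, BCAT1 from 502.3 to 184.7 at -1.59 and BCAT2 from 764.5 to 280.4 at -1.47, as was IVD of leucine breakdown at -1.41. PPM1K, the phosphatase that switches on the next enzyme complex, went from 105.0 to 303.0 and was at 2.08, with 1.17 the lowest of its 6 alternative settings. The other higher genes, chosen after their values were seen, were BCKDHA of that complex at 1.22 and MCCC1 of leucine breakdown at 1.02. BCKDHA was under 2-fold in 1 and MCCC1 in 5 of 6 alternative settings.

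**Figure D4:**
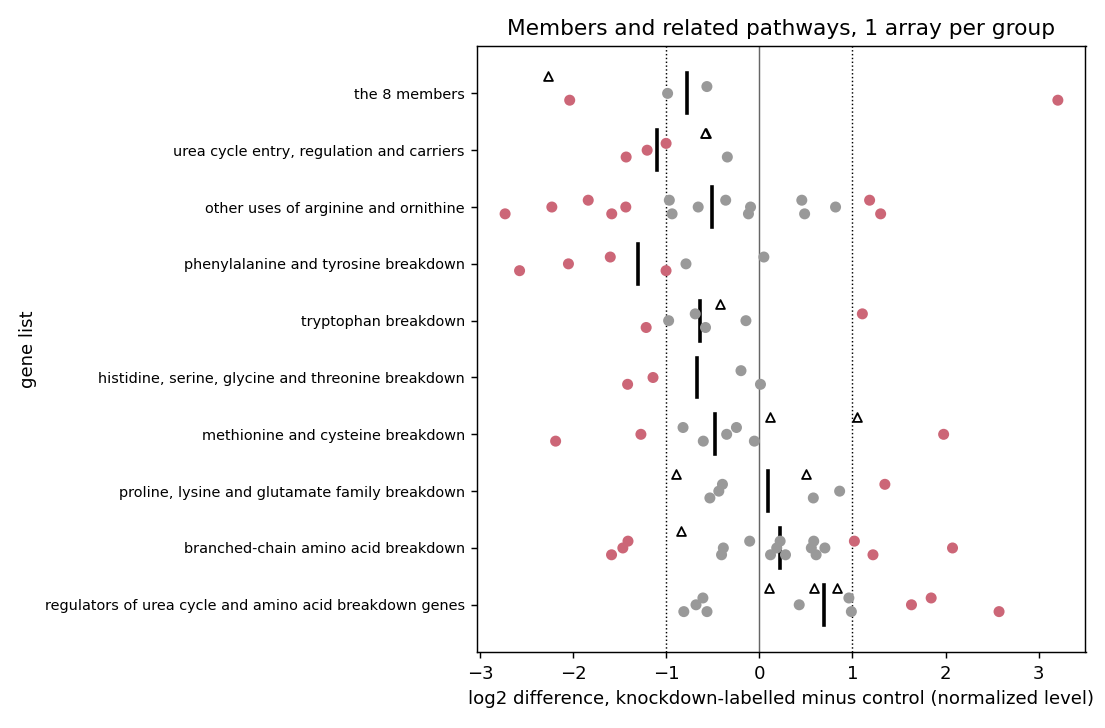
Log2 difference (knockdown-labelled minus control) of the 8 members and of 9 lists of related genes. Circles are genes detected on both arrays (red at 2-fold or more, bar at the list median), triangles are bounds of genes detected on 1 array, and dotted lines mark 2-fold. The list of phenylalanine and tyrosine breakdown has the lowest median, -1.30, and the list of regulators the highest, 0.70.

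Transcription factors known to control these enzymes in liver were higher or within 2-fold, and none of those detected on both arrays was called lower. Of 10 detected on both arrays, 3 were higher, 0 lower and 7 within 2-fold, with a median of 0.70. Over all genes detected on both arrays, 9.89% were called higher and 10.4% lower, with a median of -0.06. FOXA1, which opens chromatin at liver genes, had signals of 155.0 and 679.5 and a difference of 2.58. CEBPD went from 444.6 to 1328.6 and was at 1.85, and the hypoxia factor HIF1A went from 181.7 to 452.9 and was at 1.63. CEBPA and CEBPB, which drive urea cycle and TAT transcription, were within 2-fold at -0.81 and -0.68. Within 2-fold also lay FOXA2 at 0.96, ATF4 of the amino acid response at 0.43, MYC at -0.56 and KLF15 at -0.61. CREB1, which binds the cAMP response element, was at 0.99 on its brightest probe, and its 3 detected probes ran from -0.22 to 0.99. Detected on the knockdown-labelled array alone were the glucocorticoid receptor gene NR3C1, PPARGC1A and PPARA, with bounds of 0.59, 0.83 and 0.11, and with these at their bounds the list median was 0.59.

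**Figure D5:**
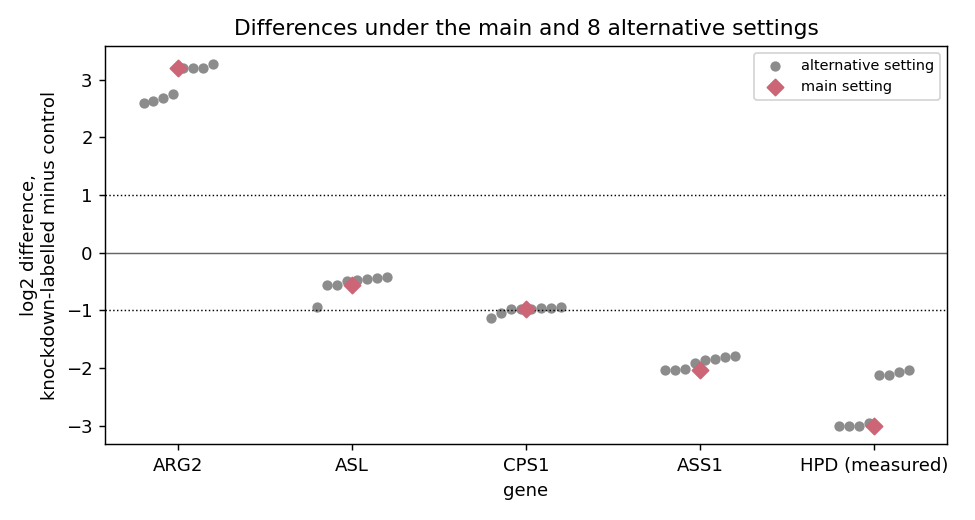
Log2 difference (knockdown-labelled minus control) of the 5 members detected on at least 1 array under the main setting (red diamonds) and 8 alternative settings (grey points), with dotted lines at 2-fold. ARG2 stays between 2.61 and 3.27 and ASS1 between -2.04 and -1.78, and CPS1 lies on either side of the 2-fold line.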

How the data were processed

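Total RNA of KYN2 cells was labelled with biotin and hybridised to 2 BeadChip arrays, 1 per group, per the labels' protocols. The deposited signal of each probe is a linear bead intensity, and per the file headers no correction or scaling step is recorded. Beside it the authors deposited a detection fraction between 0 and 1. It rises as signals rise, so it was taken as the complement of the detection p. The authors' other deposited table gives processed log2 values centred near 0, with column medians of 0.00222 (control) and -0.00275 (knockdown). Its knockdown minus control difference followed the log2 ratio of signals (slope 0.981, r = 0.996) across 10804 probes; probes are no independent replicates. That settles its scale and direction, and its centring stays unknown.

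Gene symbols came from the 2016 annotation of the platform (1 symbol for 27577 probes, several for 13, none for 21212). Signals went through the neqc function (limma 3.58.1, R 4.3.3: normal-exponential background inferred from the detection p, offset 16, quantile normalization, log2), and the probe of highest mean level stood for its gene. The lowest detected levels, 5.84 and 5.70, left out the HSF1 probe whose detection value broke the order of the signals. For a gene detected on 1 array, the comparator was the other array's lowest detected level, or the gene's own level there if higher, and the normalized fold is given as "at least". The offset understates folds of dim genes. The procedure was tested on simulated data. Every member and HSF1 probe was named; in each list, the members at least 2-fold apart, up to 4, and those with a bound of at least 2-fold on 1 array; of the regulators, all detected; of the cell markers, a fixed few, with those chosen after their values were seen marked as such. Members and lists were chosen with earlier results of these data known.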

Additional observations from a re-analysis of the deposited data

How the results depend on the processing

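No paired analysis was possible because each group holds 1 array, and for the same reason no replicate could be left out and no chip could be fitted as a block. Across 8 alternative settings the log2 difference of ARG2 ran from 2.61 to 3.27, of ASS1 from -2.04 to -1.78, of ASL from -0.94 to -0.43 and of HPD, as measured, from -3.01 to -2.04; each kept its direction and its side of 2-fold in all 8. The bound for HPD ran from -2.97 to -1.66 in the 6 settings that gave one. CPS1 was past 2-fold with centring on the median (-1.05) and for the plain ratio (-1.14). The number of members lower therefore rose from 1 to 2 in those settings, and also at 1.5-fold; without a detection filter it was 2, through HPD. The plain ratio put 5.96% of all genes higher and 9.72% lower, so 38.0% of its calls were higher against 48.8% in the main setting. Without a detection filter the shares were 6.54% and 5.79%, since undetected genes enter.

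Small list counts moved as follows. With the plain ratio, 1 gene was higher in branched-chain breakdown, 1 in the arginine and ornithine list, 0 in tryptophan breakdown and 0 in the proline, lysine and glutamate list. That last list had 0 higher without background correction, at offset 50 and in the authors' values, 2 higher with centring on the median, at a detection p under 0.05 and without a filter, and 1 lower without a filter. In histidine, serine, glycine and threonine breakdown 1 was lower without background correction, at offset 50, in the authors' values and with the plain ratio, and the median was 0.0127 without a filter. In methionine and cysteine breakdown 2 were higher at a detection p under 0.05 and without a filter, and 1 was lower with the mean of detected probes. Of the regulators, 5 were higher without a filter. The remaining 285 values kept their side of 2-fold, or as counts stayed within 1.5 times and as medians within a 1.5-fold shift. Among these, the genes feeding the urea cycle had 2 lower in place of 3 without background correction, at offset 50 and in the authors' values, and branched-chain breakdown had 2 higher in place of 3 in those settings and with centring on the median. Phenylalanine and tyrosine breakdown had 3 lower in place of 4 in those 4 settings and with the plain ratio. Causes were not tested beyond the changed set of genes.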
